A study of Mus musculus with 4 samples.

Results

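The genes described here are Cnr1, which encodes the cannabinoid receptor CB1, and Cnrip1, which encodes a protein that binds this receptor. They were taken by symbol from the count tables and are 2 of the 20211 genes listed in all 4 libraries. The RNA was that of single nuclei from mouse hippocampus, and each genotype had 1 library. The genotypes, as the labels give them, were wild type, a total or global MAGL knockout, an astrocyte specific one and a neuron specific one. MAGL is monoacylglycerol lipase, the product of Mgll. The labels give neither a treatment nor the age, the sex, the number of animals in a library, the driver of the cell-type knockouts or the deleted part of Mgll. Nuclei were grouped into cell classes by marker genes, in clusters built without Cnr1, Cnrip1 and Mgll, and a class name means that its nuclei resemble the type on these markers. Levels are given as CPM, that is UMIs (counted molecules) of the gene per 1000000 UMIs of the class in that library, and 4 values in a row stand for the libraries in the order wild type, labelled total knockout, labelled astrocyte knockout and labelled neuron knockout. No genotype has a replicate, so no test was made. All intervals are 95% and cover counting error only, and an SD over libraries describes the spread across these 4 libraries.

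CB1 is a receptor of the Gi/o class that sits mainly on axon terminals, where 2-arachidonoylglycerol (2-AG) released from the postsynaptic cell lowers transmitter release. In the hippocampus the densest CB1 protein is known from basket cells that hold the peptide cholecystokinin (CCK), while terminals of pyramidal cells hold less and parvalbumin basket cells are known to lack it. MAGL breaks down 2-AG, and loss of MAGL in mice is known to desensitise CB1. CNRIP1 binds the C-terminal tail of CB1.

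In GENCODE M21 (GRCm38), Cnr1 (ENSMUSG00000044288.6) lies on chr4:33924593-33948831, plus strand, and its longest coding sequence of 473 codons sits in 1 exon. Cnrip1 (ENSMUSG00000044629.5) lies on chr11:17051586-17079371, plus strand, with 164 codons in 3 coding exons. The 5′ end of Cnrip1 overlaps Plek, a gene of the minus strand, and the sources used here do not give whether reads were counted by strand, so Cnrip1 counts near that end could hold Plek reads. A start region of each gene is given here as description, and its part in the levels across cell classes was not tested. Each run covers 250 bases before and 50 after an annotated start, from RefSeq on GRCm38.p6, plus strand, 5′ to 3′. The Cnr1 window is chr4:33924394-33924693 and the Cnrip1 window is chr11:17051609-17051908, and capitals mark each CG step. The Cnrip1 window follows a RefSeq start that lies after the GENCODE start of the gene, at 17051586. It therefore lies wholly inside the GENCODE gene and holds no base before that start, unlike the Cnr1 window.
Cnr1 promoter: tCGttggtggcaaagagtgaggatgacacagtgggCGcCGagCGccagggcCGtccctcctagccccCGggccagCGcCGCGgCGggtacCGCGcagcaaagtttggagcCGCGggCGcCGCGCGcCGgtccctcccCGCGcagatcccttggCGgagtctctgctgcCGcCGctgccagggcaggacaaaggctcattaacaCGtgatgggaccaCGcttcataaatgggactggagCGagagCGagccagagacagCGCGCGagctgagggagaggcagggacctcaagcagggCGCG
Cnrip1 promoter: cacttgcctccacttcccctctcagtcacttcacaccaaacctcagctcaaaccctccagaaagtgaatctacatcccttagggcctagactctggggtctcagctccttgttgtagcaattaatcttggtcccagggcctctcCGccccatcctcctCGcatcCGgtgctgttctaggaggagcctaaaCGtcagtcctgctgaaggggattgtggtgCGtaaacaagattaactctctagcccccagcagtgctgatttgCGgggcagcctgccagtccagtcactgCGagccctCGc
The Cnr1 window held 33 CG steps, more than 91.4% of the 32851 mouse promoters of this table, with 69.0% G or C. The Cnrip1 window held 8, more than 51.4% of promoters, where the median was 7, with 56.0% G or C. The table lists 2 other starts for Cnr1, with 40 and 5 CG steps. The letters GGGCGG on either strand, which 35.7% of promoters hold, were found once in the Cnrip1 window and not in the Cnr1 window shown, while the Cnr1 start with 40 CG steps held 5. Neither window held TATAAA on either strand, which 13.6% of promoters hold. These counts are descriptions of letters, and the RNA counts do not tell which Cnr1 start was used.

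The libraries held 8945 to 31243 barcodes and 81623644 to 193307038 UMIs, and after filters 51458 nuclei were kept. The library labelled total knockout had the most barcodes and the lowest median depth (5456 UMIs per barcode against 7448 to 8904 in the others). Of barcodes past the filters, it had the largest share called doublets (23.0% against 1.81% to 5.87%). The expected doublet rate was set at 0.8% per 1000 barcodes of a library, so it was set highest for the largest library. The library labelled total knockout held 19342 nuclei with only Y-linked and 3 with only Xist UMIs, while each of the other libraries held between 3556 and 4315 nuclei of each kind. Pairs of libraries shared 108 to 466 barcodes. The clustering gave 58 clusters, and 3081 nuclei stayed in unnamed ones. Mgll, the targeted gene, followed the labels only in part: it stood at 102, 80.9, 104 and 106 CPM in all excitatory neurons and at 122, 129, 141 and 125 CPM in all inhibitory neurons. It was thus lower in excitatory neurons of the library labelled total knockout, and not lower than wild type in either group of neurons as a whole in that labelled neuron knockout. In astrocytes, where 37 to 154 Mgll UMIs were counted, it stood at 345, 273, 214 and 441 CPM, and in oligodendrocytes, from 27 to 106 UMIs, at 110, 53.4, 199 and 179 CPM. Counted reads outside a deleted part would check nothing, so the knockouts are named throughout by their labels.

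Cnr1 was highest in the CCK-like interneurons of every library. It stood there at 1864, 1786, 1741 and 1605 CPM (mean 1749 ± 109, SD over 4 libraries), from 2699, 4802, 2839 and 4645 UMIs in 125, 386, 185 and 251 nuclei. These nuclei were named by Cck, Cxcl14, Slc17a8, Npas1 and Necab1, not by Cnr1. Of the 8 markers listed for the type, Sncg passed in neither of its clusters, Krt73 only in cluster i5 and Tnfaip8l3 only in cluster i7. Vip-like interneurons, which mostly contact other interneurons, came next at 615, 534, 613 and 538 CPM (575 ± 44.9), and no library of one class reached the range of the other. Within a library, CCK-like nuclei were 2.84-fold to 3.34-fold above Vip-like nuclei.

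The other interneuron types lay far below. Lamp5-like interneurons, which include neurogliaform cells, held 113, 144, 108 and 102 CPM, and somatostatin-like interneurons, which target dendrites, held 135, 93.5, 96.0 and 99.5 CPM. These 2 types overlapped, with 12.4 to 19.1 times less Cnr1 than CCK-like nuclei of the same library. Parvalbumin-like interneurons, the other basket cell type, held 16.6, 14.5, 6.34 and 20.1 CPM from 10 to 41 UMIs per library. The distance from CCK-like to parvalbumin-like nuclei was 112-fold, 123-fold, 275-fold and 79.9-fold in the 4 libraries. The spread of that fold follows the parvalbumin counts, the smallest of which (10 UMIs) was in the library labelled astrocyte knockout.

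**Figure D1:**
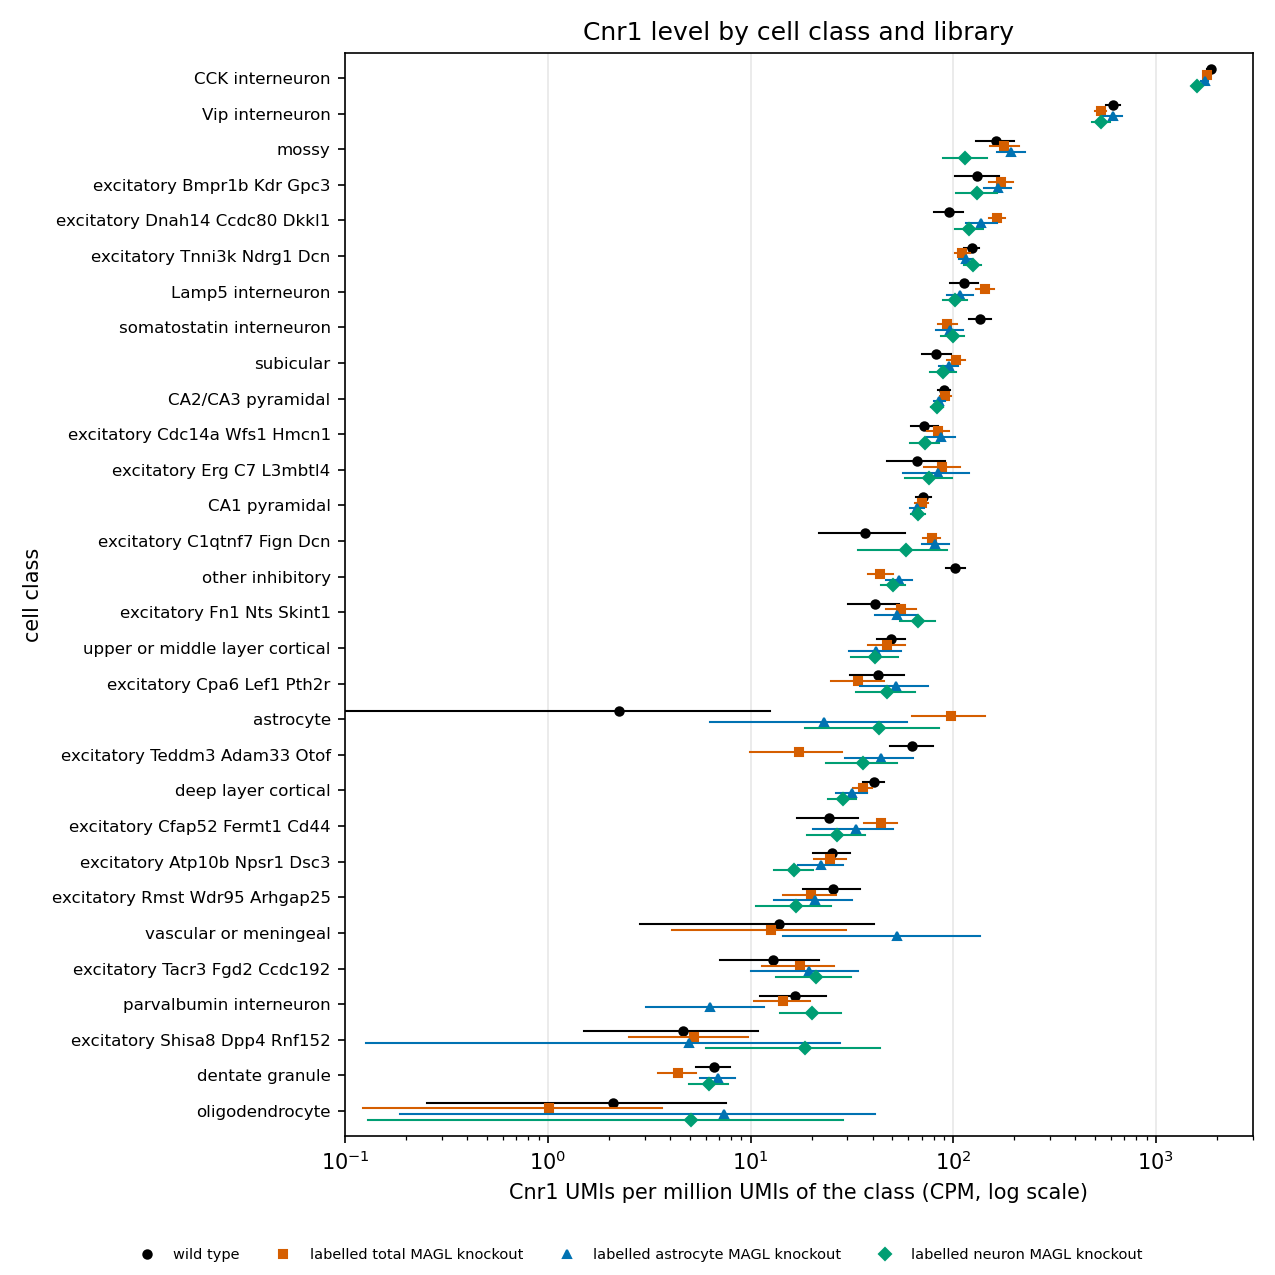
Cnr1 level (x, CPM on a log scale) in the 30 cell classes with at least 20 nuclei in all 4 libraries (y, ordered by mean). Points are libraries and bars 95% Poisson intervals of the count, a library without a Cnr1 UMI in a class has no point and bars end at the left edge of the axis; CCK-like nuclei stand between 1605 and 1864 CPM and Vip-like nuclei between 534 and 615 CPM.

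Over the 30 classes with at least 20 nuclei in all 4 libraries, mean Cnr1 levels ran from 3.89 CPM in oligodendrocytes to 1749 CPM, a span of 450-fold. Only CCK-like and Vip-like nuclei had means above 500 CPM, and 6 classes had means below 20 CPM. Below Vip-like nuclei, each class overlapped its neighbour in the order of means over the libraries, so no order is read between neighbours. The rank order of the 30 classes was much alike between libraries, with Spearman rho of 0.82 to 0.94 over the 6 pairs, which share the clustering.

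Finer clusters of inhibitory nuclei kept the CCK-like nuclei in a narrow band. The cluster led by Scrg1, Krt73 and Col14a1 (i5) held 1670, 1649, 1702 and 1510 CPM. The cluster led by Cadps2, Megf10 and Syt6 (i7), in which Slc17a8, the vesicular glutamate transporter VGLUT3, and the chemokine Cxcl14 were among the leading genes, held 2060, 1903, 1797 and 1724 CPM. In each library i7 lay above i5. The Vip-like clusters held 636, 539, 614 and 574 CPM (i3, with Vip among its leading genes) and 558, 518, 611 and 430 CPM (i11, named by Calb2, Tac2, Htr3a and Penk without Vip). The 2 types shared markers. Of the CCK list, Cxcl14 and Npas1 passed in i3 and i11, and Tnfaip8l3 in i11. Of the Vip list, Htr3a passed in i5 and i7, and Tac2 in i7.

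Lamp5-like nuclei split into unlike clusters. The cluster with Kit and Ndnf among its leading genes (i8) held 249, 273, 288 and 235 CPM, while the cluster with Hapln1 and Id2 (i2) held 17.8, 71.6, 40.4 and 64.6 CPM. The level of the whole class therefore depends on their mix, and i8 made up 45.6%, 39.8%, 30.2% and 26.0% of the class. A small cluster that reached no name, i13, led by Adgrg6, Meis2 and Chrm2, held 530, 316, 320 and 370 CPM in 22 to 41 nuclei per library. None of the CCK markers passed in it, although its Cnr1 was above that of each measured Lamp5-like and somatostatin-like cluster of the same library.

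**Figure D2:**
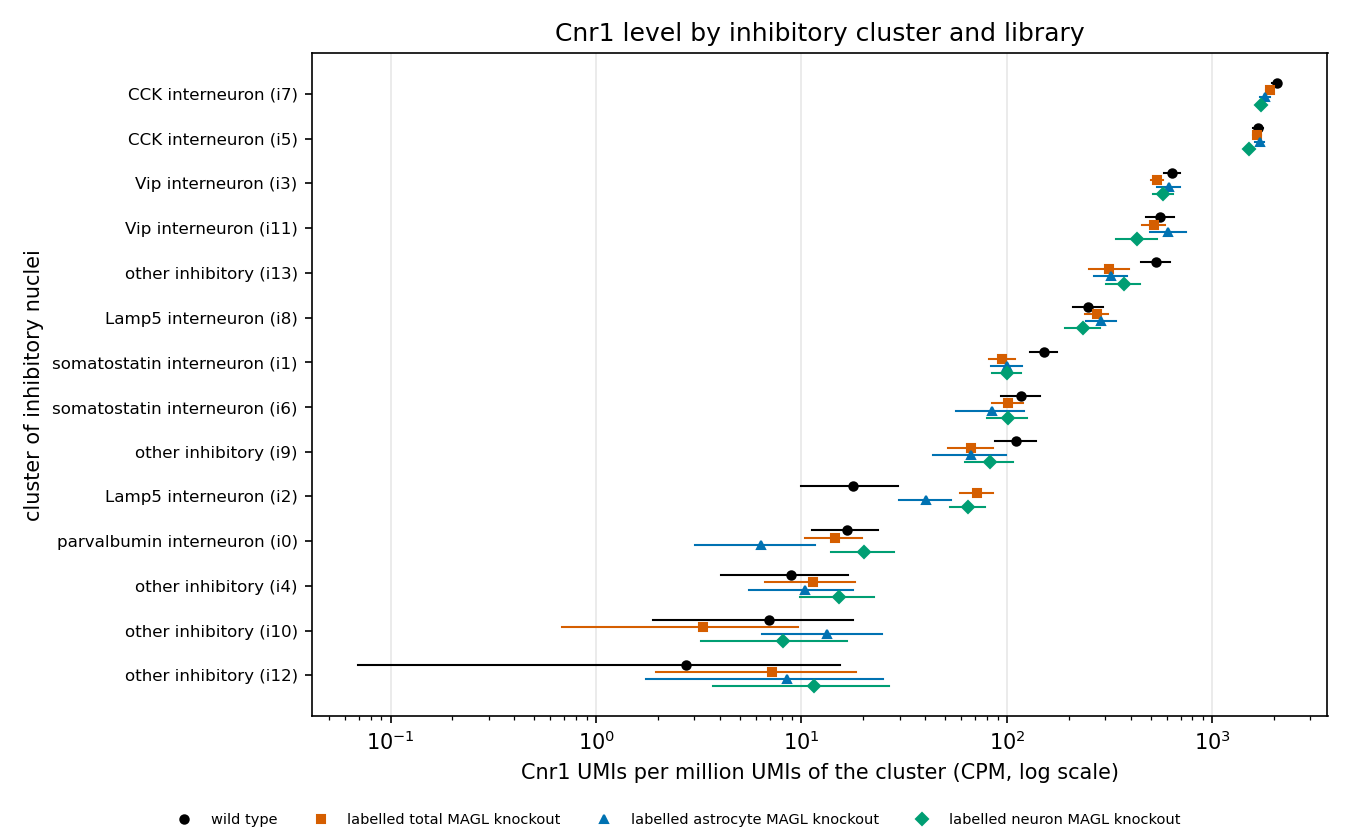
Cnr1 level (x, CPM on a log scale) in the 14 clusters of inhibitory nuclei with at least 20 nuclei in all 4 libraries (y, ordered by mean); points are libraries and bars 95% Poisson intervals of the count. Both CCK-like clusters lie between 1510 and 2060 CPM, and the Lamp5-like clusters i8 and i2 lie apart in every library.

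Medium spiny-like nuclei, the projection neurons of the striatum, were found mainly in the library labelled total knockout, with few in the wild-type library. They held 79.2 CPM (19 UMIs in 30 nuclei) in the wild-type library and 412 CPM (1564 UMIs in 737 nuclei) in the library labelled total knockout, and 0 and 1 such nuclei were found in the other libraries. Summed markers of this type stood at 5035 and 5903 CPM in these groups. The class was named by these markers over nuclei of all libraries together, and a sum does not tell which of the 7 markers the 30 wild-type nuclei held.

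Among excitatory neurons, mossy-like cells of the dentate hilus had the highest mean of Cnr1, overlapping the next class, and held 163, 179, 194 and 115 CPM in 34 to 78 nuclei per library. CA2/CA3-like pyramidal neurons held 90.1, 91.5, 85.5 and 83.1 CPM (87.6 ± 3.91) and CA1-like neurons 71.2, 69.9, 66.3 and 67.1 CPM (68.6 ± 2.31). The lowest CA2/CA3-like library stood above the highest CA1-like library, although other classes lay between their means and overlapped them. Subicular-like neurons held 82.7, 103, 95.1 and 89.3 CPM. Excitatory classes that reached a cortical name, all of whose libraries lay below those of CA1-like neurons, had means of 44.9 ± 3.98 CPM in upper or middle layers and 34.1 ± 5.2 CPM in deep layers. Mossy-like cells stood 1.71-fold to 2.92-fold above CA1-like neurons of the same library, and CCK-like interneurons 23.9-fold to 26.3-fold.

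The CA2/CA3-like class was not uniform. Cluster c15 held 46.0, 55.9, 52.6 and 47.1 CPM, below the 101 to 115 CPM of cluster c13 and the 112 to 124 CPM of cluster c33. The CA1-like clusters c3 and c4 stayed between 62.4 and 76.0 CPM in all libraries. The excitatory class led by Bmpr1b, Kdr and Gpc3, which no marker list named, reached 132, 173, 166 and 131 CPM. That led by Dnah14, Ccdc80 and Dkkl1, also without a name, reached 95.0, 165, 138 and 120 CPM. Its closest list was that of upper or middle cortical layers, of which 3 of 7 markers passed (Rorb, Exph5 and Pamr1).

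Dentate granule-like neurons, the most numerous class, held 6.58, 4.37, 6.90 and 6.22 CPM from 108, 89, 98 and 84 UMIs in 1765 to 4307 nuclei. CA1-like neurons were 9.60-fold to 16.0-fold higher. The 5 inhibitory lineage genes summed to 70.7 to 79.0 CPM and the 8 oligodendrocyte genes to 365 to 395 CPM in dentate granule-like nuclei, and their part in the Cnr1 level was not tested. Granule clusters differed: c1 held 8.13 to 12.9 CPM and c0 held 1.11 to 3.24 CPM.

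Glial and other nuclei held few Cnr1 UMIs. Oligodendrocytes held 2, 2, 1 and 1 UMIs in 362, 1372, 43 and 56 nuclei. Astrocytes held 1, 25, 4 and 8 UMIs, and all 25 UMIs in the library labelled total knockout came from 1 nucleus. The astrocyte levels of 2.24, 97.3, 23.1 and 43.0 CPM therefore rest on 1 to 3 nuclei each, and no order among them is read. Oligodendrocyte precursors held 18.7, 11.1 and 68.1 CPM (19, 16 and 7 UMIs in 284, 655 and 23 nuclei) in the wild-type library and those labelled total and astrocyte knockout. Choroid plexus-like nuclei of the wild-type library held 0 Cnr1 UMIs in 98 nuclei, which allows up to 6.48 CPM at 3 counts.

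A small class held much of the receptor RNA. CCK-like interneurons made up 1.40%, 1.62%, 1.84% and 2.89% of nuclei and held 34.8%, 33.5%, 35.2% and 50.9% of all Cnr1 UMIs. CA2/CA3-like neurons held 10.5%, 6.99%, 13.5% and 8.42% of them. The level over all nuclei, 92.3, 111, 100 and 115 CPM, did not follow the CCK-like level: in the library labelled neuron knockout it was the highest although the CCK-like level was the lowest. CCK-like nuclei made up 17.5% of inhibitory nuclei there against 11.2% in the wild-type library. With 1 library per genotype, a difference in mix cannot be told apart from a difference in the tissue that entered the library.

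In single nuclei, Cnr1 was found in nearly every CCK-like nucleus. Only 1, 7, 2 and 1 nuclei lacked a UMI, and the median was 17, 10, 13 and 16 UMIs per nucleus. The median depth of these nuclei ran from 6724 to 11219 UMIs, and after thinning each nucleus to 2000 UMIs the median was 3 in all 4 libraries. At 1000 UMIs per nucleus, 76.8%, 70.9%, 63.2% and 72.1% of CCK-like nuclei and 43.3%, 34.8%, 35.2% and 43.9% of Vip-like nuclei held a Cnr1 UMI. CA1-like neurons gave 6.40%, 7.35%, 7.12% and 4.81%. As background, dentate granule-like nuclei gave 0.57%, 0.31%, 0.29% and 0.57% (median depth 4378 to 7979 UMIs before thinning, against 6724 to 11219 in CCK-like nuclei), and oligodendrocytes 0 of 356 and 1 of 990 nuclei in the wild-type library and the library labelled total knockout. Before thinning the shares were 99.2%, 98.2%, 98.9% and 99.6% in CCK-like, 89.6%, 73.4%, 85.2% and 86.0% in Vip-like, 47.8%, 33.4%, 37.0% and 43.7% in CA1-like and 4.68%, 1.86%, 4.10% and 4.08% in dentate granule-like nuclei. Parvalbumin-like nuclei, at 2.17%, 1.17%, 0.50% and 2.17% (13.5%, 6.31%, 3.50% and 13.0% before thinning), had intervals that overlapped those of dentate granule-like nuclei at this depth, where 1 to 6 parvalbumin-like nuclei held a UMI. At 2000 UMIs the shares were 4.42%, 2.67%, 0.51% and 2.30% in parvalbumin-like and 1.17%, 0.79%, 1.17% and 0.89% in dentate granule-like nuclei. In CPM, parvalbumin-like nuclei stood above dentate granule-like nuclei in the 3 libraries other than that labelled astrocyte knockout.

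**Figure D3:**
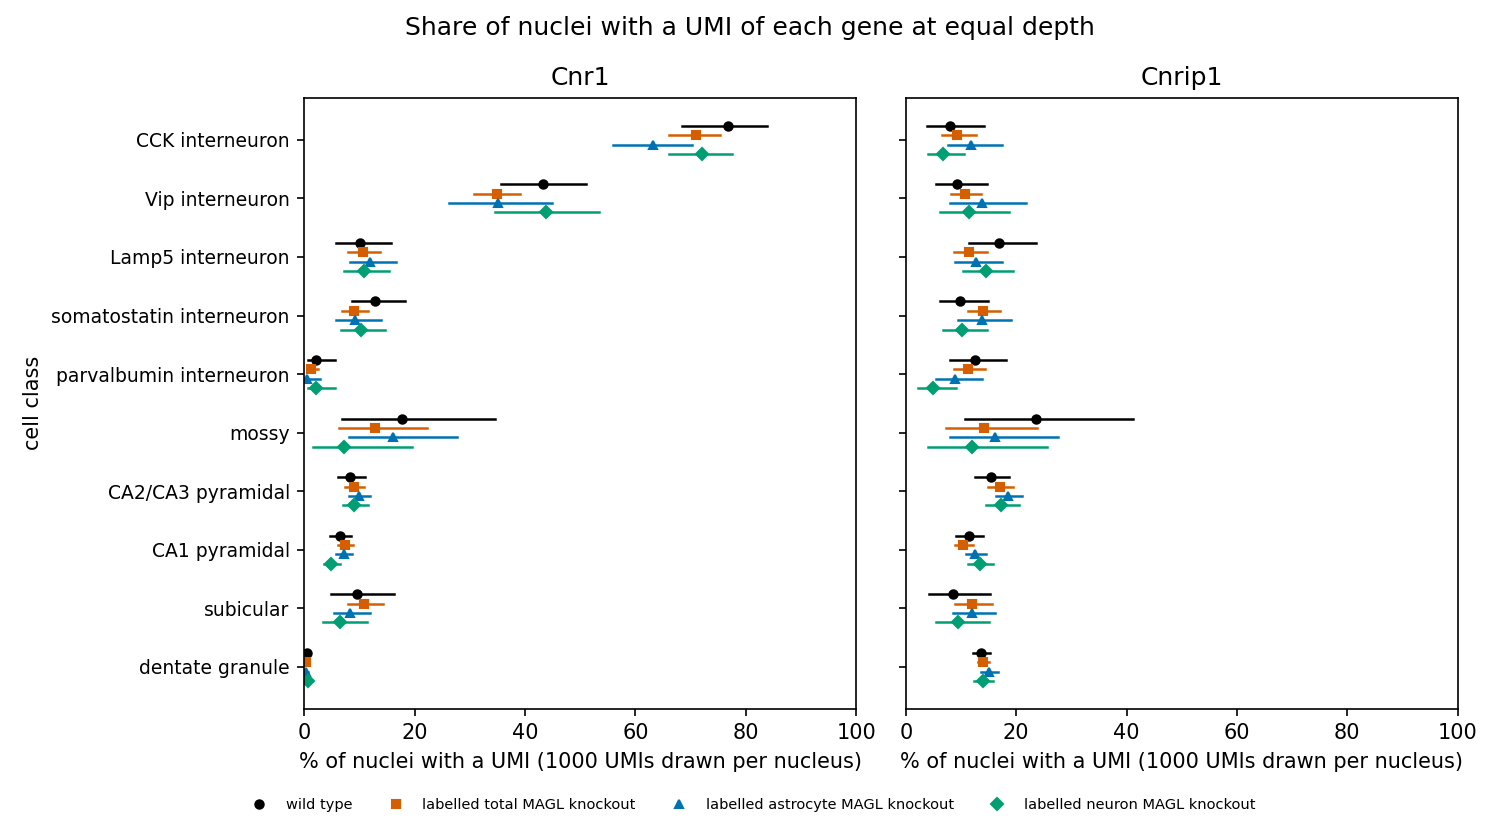
Share of nuclei with at least 1 UMI (x, %) of Cnr1 (left) and Cnrip1 (right) after 1000 UMIs were drawn from each nucleus, in 10 neuron classes (y). Points are libraries and bars 95% Clopper-Pearson intervals; Cnr1 shares run from under 1% in dentate granule-like to 76.8% in CCK-like nuclei, and Cnrip1 shares stay under 25% in every class.

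Cnrip1 varied far less than Cnr1 over the 30 classes measured in all 4 libraries. Its means there ran from 79.8 to 189 CPM, a span of 2.37-fold, and all 30 lay between 60 and 200 CPM. It was highest in CA2/CA3-like neurons, at 183, 181, 206 and 186 CPM (189 ± 11.7), and no other class measured in 4 libraries reached this range. Mossy-like cells held 176, 167, 163 and 141 CPM and dentate granule-like neurons 159, 149, 167 and 153 CPM (157 ± 7.79). CA1-like neurons held 124, 119, 137 and 122 CPM (126 ± 8.22), and within each library CA2/CA3-like neurons stood 1.47-fold to 1.53-fold above them.

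Interneurons held Cnrip1 at levels close to one another and not in the order of their Cnr1. CCK-like nuclei held 105, 105, 122 and 111 CPM (111 ± 7.98), Vip-like nuclei 131, 118, 135 and 102 CPM, and parvalbumin-like nuclei 103, 97.6, 96.3 and 105 CPM. CCK-like nuclei thus stood 1.01-fold to 1.27-fold above parvalbumin-like nuclei in Cnrip1, where the same classes were 79.9-fold or more apart in Cnr1. Dentate granule-like neurons, near the bottom for Cnr1, stood 1.21-fold to 1.29-fold above CA1-like neurons in Cnrip1. Oligodendrocytes held 92.8, 76.1, 118 and 91.9 CPM and astrocytes 105, 113, 110 and 64.5 CPM, the latter from 12 to 47 UMIs.

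The lowest mean of these 30 classes, 79.8 CPM, was that of the excitatory class led by Fn1. Lower levels still were in nuclei found in few libraries. Medium spiny-like nuclei held 45.9 and 37.1 CPM (11 and 141 UMIs) in the wild-type library and the library labelled total knockout, and choroid plexus-like nuclei 17.3 CPM (8 UMIs). Between libraries, the rank order of the 30 classes gave Spearman rho of 0.45 to 0.75 for Cnrip1, lower than for Cnr1, over a range of levels that was far narrower.

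**Figure D4:**
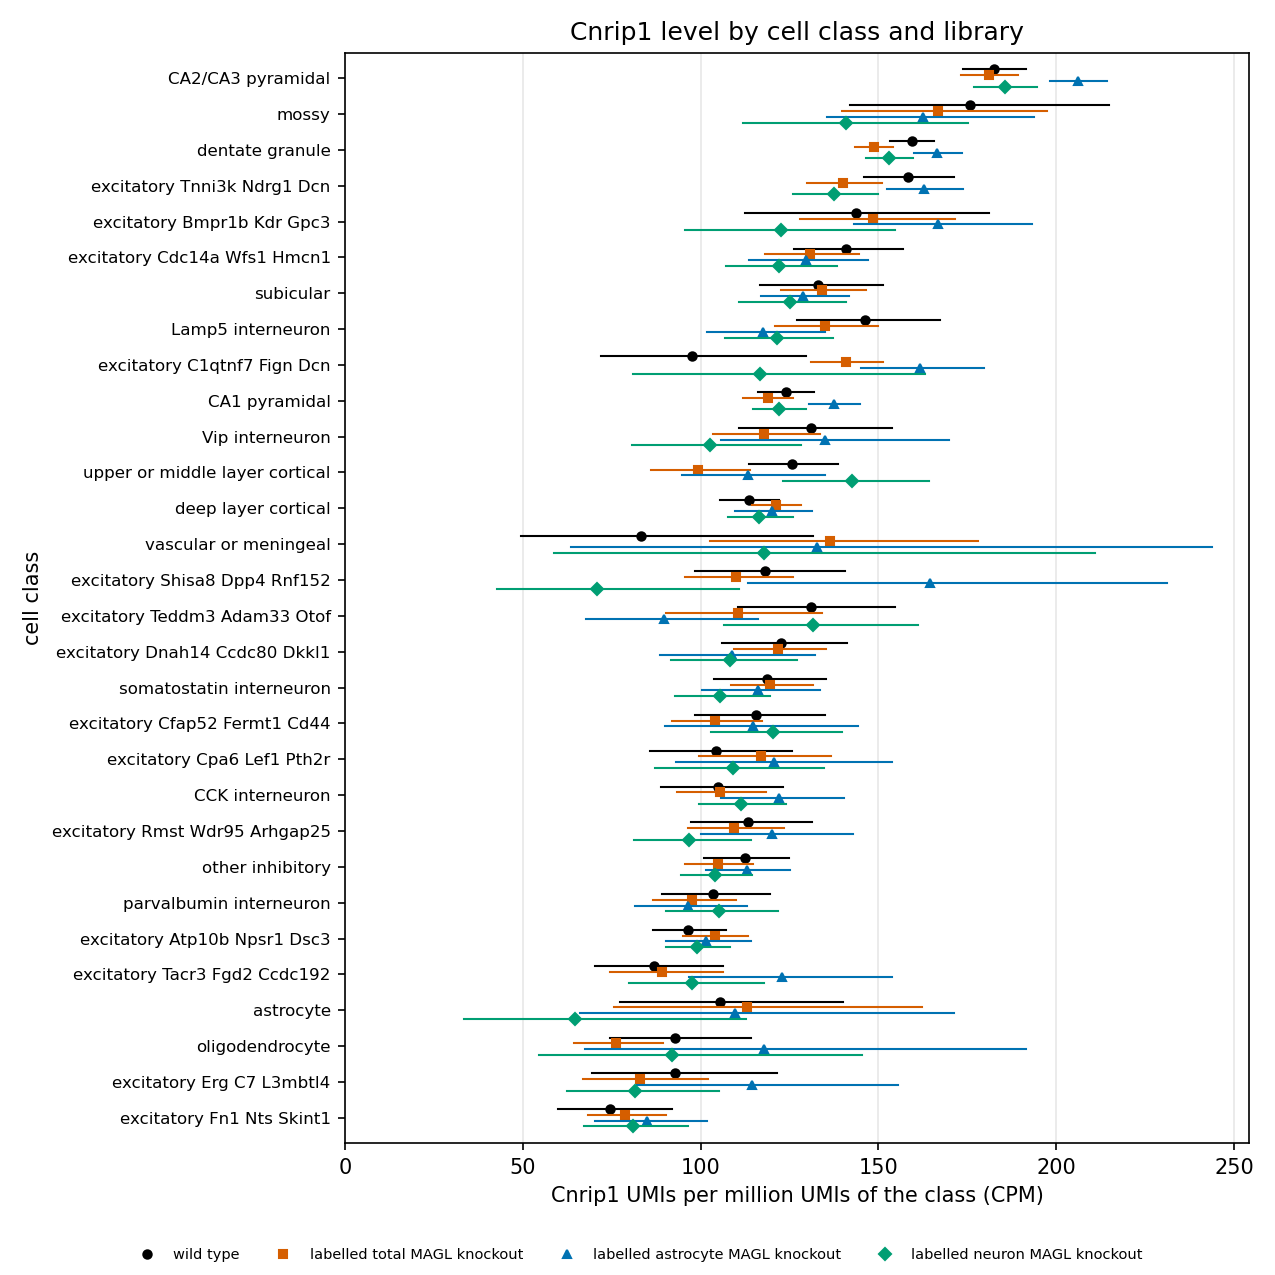
Cnrip1 level (x, CPM on a linear scale from 0) in the 30 cell classes with at least 20 nuclei in all 4 libraries (y, ordered by mean). Points are libraries and bars 95% Poisson intervals of the count; CA2/CA3-like neurons lead at 181 to 206 CPM and most other classes overlap.

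At 1000 UMIs per nucleus, a Cnrip1 UMI was found in 15.5%, 17.1%, 18.6% and 17.3% of CA2/CA3-like nuclei and in 8.0%, 9.35%, 11.9% and 6.77% of CCK-like nuclei, where 90.4%, 76.5%, 86.4% and 86.3% and 65.6%, 49.7%, 65.4% and 65.3% held one before thinning. Choroid plexus-like nuclei of the wild-type library, taken for comparison, gave 2.17% of 92 nuclei after thinning. In CCK-like nuclei thinned to 2000 UMIs, 19.4%, 15.1%, 20.6% and 19.0% held UMIs of both genes. Among CCK-like nuclei with a Cnr1 UMI, 21.4%, 16.7%, 22.3% and 20.8% also held one of Cnrip1. The nuclei without a Cnr1 UMI at this depth numbered only 12 to 35 per library, too few for a comparison. Across 38 classes with at least 20 nuclei in at least 2 libraries, which share libraries and depth, the levels of the 2 genes gave a Pearson r of 0.23 on log2(CPM + 1).

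The knockout-labelled libraries were then each set against the wild-type library, which all 3 comparisons share, to ask how the receptor and its partner stood where MAGL is labelled as lost. In CCK-like interneurons, the class with the most Cnr1, the log2 ratio was -0.06 (interval -0.13 to 0.01) for the library labelled total knockout, -0.10 (-0.18 to -0.02) for that labelled astrocyte knockout and -0.22 (-0.28 to -0.15) for that labelled neuron knockout. All 3 lay within 1.5-fold, and the interval of the first held 0. The first ratio sets unlike mixes of nuclei against each other. Over all classes, the library labelled total knockout held 19342 nuclei with only Y-linked and 3 with only Xist UMIs, and the wild-type library 3727 and 4204. In nuclei with only Y-linked UMIs of both libraries the value was -0.23, below the main interval. Over the alternatives, the value for the library labelled total knockout ran from -0.23 (nuclei with only Y-linked UMIs, or doublets kept) to 0.024 (median-of-ratios scaling). That for the library labelled astrocyte knockout ran from -0.32 (thinned to 1000 UMIs) to 0.072 (each library clustered alone), and was 0.028 in cluster i5. In this class 1.16%, 0.987% and 1.80% of genes with at least 100 UMIs were at least 1.5-fold higher and 4.06%, 3.81% and 4.65% lower in these comparisons. Depending on sex, clusters and how the class was drawn, the value for the library labelled neuron knockout ran from -0.42 (nuclei with only Y-linked UMIs) to -0.04 (classes from each library clustered alone, or from a gate on each nucleus). With only Xist UMIs that value was -0.10. Within the wild-type library itself, CCK-like nuclei with only Xist UMIs held 1782 CPM and those with only Y-linked UMIs 2107 CPM, further apart than any pair of libraries. This split is of 1 library and is given without its counting error. The ratios of -0.42 and -0.10 differ, so the split was not alike in the library labelled neuron knockout. No order of the 2 kinds of nuclei is read.

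In Vip-like nuclei the ratios were -0.20 (-0.34 to -0.06), -0.00 (-0.20 to 0.19) and -0.19 (-0.37 to -0.01), and with nuclei assigned by a gate they were -0.54, -0.59 and -0.44. In somatostatin-like nuclei the log2 ratios were -0.54 (-0.77 to -0.30), -0.50 (-0.79 to -0.21) and -0.44 (-0.70 to -0.18), short of 1.5-fold. With libraries clustered alone the first and the second were -0.20 and -0.21, and the second was -0.14 by the gate and, past 1.5-fold, -0.83 with nuclei thinned to 1000 UMIs. In their cluster led by Layn and Ccna1 (i1) the wild-type level was 152 CPM against 94.8, 100.1 and 100.2 CPM, a log2 ratio of -0.68, -0.60 and -0.60, and in cluster i6 it was 117 CPM against 101, 84.2 and 101 CPM. These values rest on 1 wild-type library, whose 260 UMIs in the class are the base of all 3. In Lamp5-like cluster i2 the reverse was seen, with 15 wild-type UMIs against 118, 50 and 105, and log2 ratios of 2.01 (1.23 to 2.89), 1.18 (0.32 to 2.12) and 1.86 (1.07 to 2.75). The Lamp5-like class as a whole, in which the share of i2 also differed, stood at 0.34, -0.07 and -0.15, and the last of these was -0.98 with libraries clustered alone and 0.24 by the gate.

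In CA1-like neurons, with 559 to 674 UMIs per library, the log2 ratios were -0.03 (-0.19 to 0.14), -0.10 (-0.27 to 0.06) and -0.09 (-0.25 to 0.09). CA2/CA3-like neurons gave 0.02, -0.08 and -0.12, each with an interval that held 0. With libraries clustered alone the CA1-like value for the neuron label was -0.31, and with nuclei thinned to 1000 UMIs that for the astrocyte label was 0.23.

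In dentate granule-like neurons Cnr1 was lower in the library labelled total knockout, with a log2 ratio of -0.59 (-1.01 to -0.17) that lay just past 1.5-fold, from 89 against 108 UMIs. The other libraries gave 0.07 (-0.34 to 0.48) and -0.08 (-0.51 to 0.35). The first value changed sign with the processing, to 0.25 when nuclei called doublets were kept and 0.31 when nuclei were assigned by a gate. Within cluster c1, which holds most of the Cnr1 UMIs of the class, it was -0.05 (-0.55 to 0.45), and c1 made up 18.9% of granule-like nuclei in that library against 35.6% in the wild-type library. Of all genes in this class, 1.15%, 1.74% and 1.13% were at least 1.5-fold higher and 4.32%, 3.59% and 3.36% lower in the 3 comparisons.

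**Figure D5:**
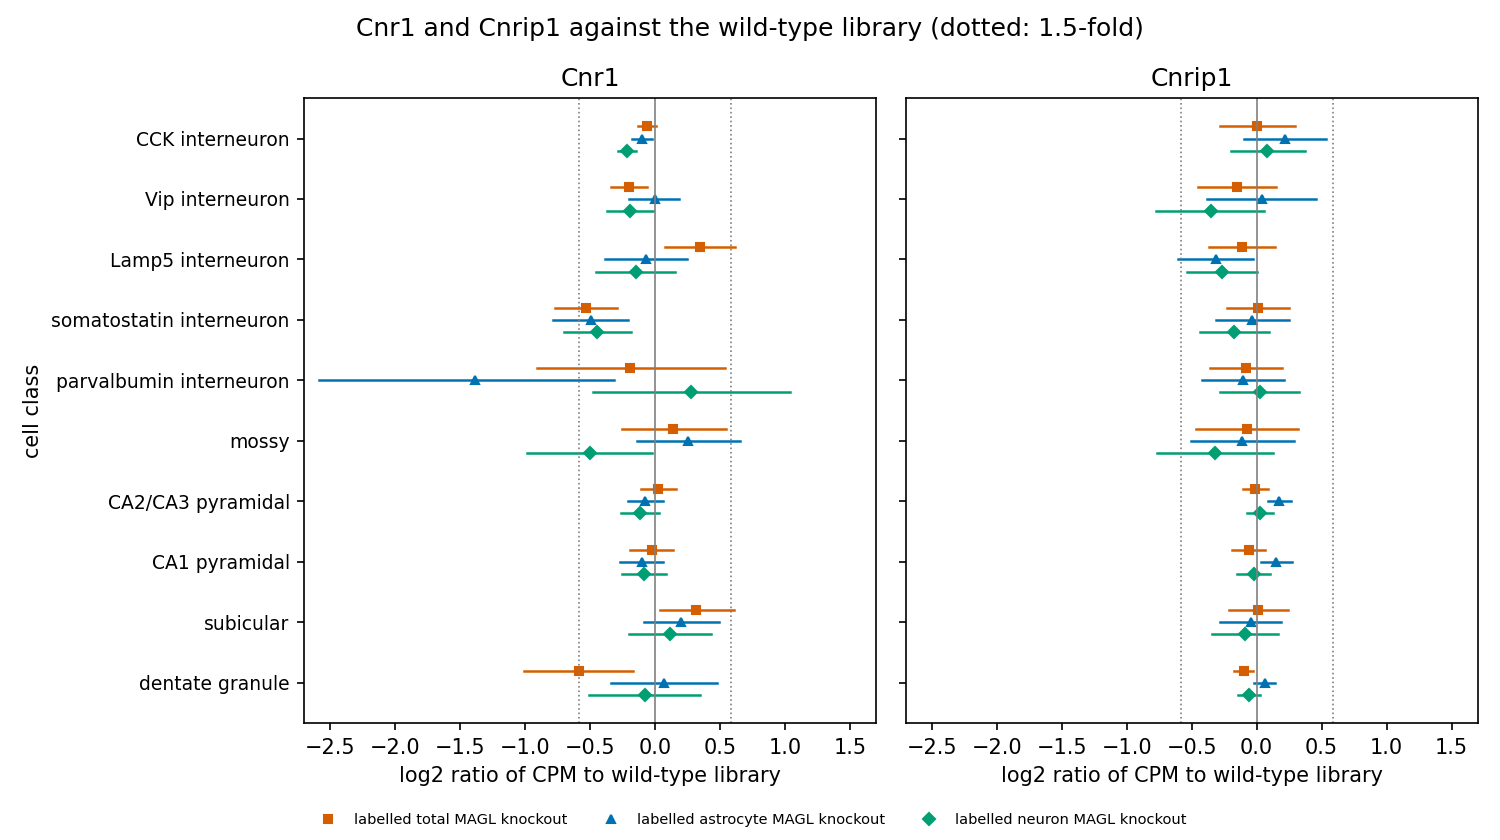
Log2 ratio of CPM in each knockout-labelled library to the wild-type library (x) for Cnr1 (left) and Cnrip1 (right) in 10 neuron classes (y), with 95% conditional binomial intervals for counting error. Dotted lines mark 1.5-fold; Cnrip1 lies within them in all 10 classes, and Cnr1 passes them in parvalbumin-like nuclei of the library labelled astrocyte knockout and, narrowly, in dentate granule-like nuclei of the library labelled total knockout.

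Over the classes with at least 100 Cnr1 UMIs in the 2 libraries together, Cnr1 was at least 1.5-fold higher in 4 and lower in 2 of 22 classes for the library labelled total knockout, where 2.29% of all pairs of a gene and a class were higher and 3.82% lower. Broad clusters without a name were left out, while inhibitory clusters without a name were counted together as 1 class. The higher classes were medium spiny-like nuclei (log2 ratio 2.38) and the excitatory classes led by C1qtnf7 (1.10), by Cfap52 (0.85) and by Dnah14 (0.80). The lower ones were dentate granule-like neurons and the inhibitory nuclei that reached no name (-1.23). For the library labelled astrocyte knockout it was higher in 1 (C1qtnf7, 1.16) and lower in 1 (inhibitory without a name, -0.92) of 19 classes, against 2.49% and 3.94% of all pairs. For the library labelled neuron knockout it was higher in 1 (the excitatory class led by Fn1, 0.71) and lower in 2 (the excitatory class led by Atp10b, -0.62, and inhibitory without a name, -1.02) of 18 classes, against 2.03% and 3.48%. The C1qtnf7 class had only 18 Cnr1 UMIs in 42 wild-type nuclei, and the medium spiny-like class 19 in 30. Ratios of all genes also spread widely in these 2 classes. Their 10th to 90th percentiles were -0.55 to 0.54 (C1qtnf7, total), -0.49 to 0.55 (C1qtnf7, astrocyte) and -0.68 to 0.57 (medium spiny-like, total). In CA1-like neurons they were -0.37 to 0.24 and in the Cfap52 class -0.33 to 0.28 (total). The shares over all pairs are therefore a low background for the C1qtnf7 and medium spiny-like classes. Of the 323 wild-type UMIs of inhibitory nuclei without a name, 83 came from 16 nuclei of a cluster led by the oligodendrocyte genes Mal and Mag, and 151 from 22 nuclei of i13, so this class rests on few nuclei.

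In parvalbumin-like nuclei the log2 ratios were -0.19 (-0.91 to 0.54), -1.39 (-2.59 to -0.32) and 0.28 (-0.48 to 1.03). The second stood on 10 against 30 UMIs and was -0.19 with nuclei assigned by a gate.

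Counted as for Cnr1, Cnrip1 passed 1.5-fold in 0 of 31 classes for the library labelled total knockout, in 1 of 28 (C1qtnf7, higher, 0.73) for that labelled astrocyte knockout and in 1 of 27 (the excitatory class led by Shisa8, lower, -0.74, from 19 against 127 UMIs) for that labelled neuron knockout. The background shares are those given for Cnr1, and the counts for Cnrip1 were near them. Ratios of all genes spread widely in both classes called. Their 10th to 90th percentiles were -0.49 to 0.55 in the C1qtnf7 class (astrocyte) and -0.50 to 0.50 in the Shisa8 class (neuron). The number of its ratios past the fold differed between settings. These ratios needed only 10 UMIs in each library, not 100 over the 2 libraries as in the counts above. Thinning also leaves fewer UMIs, so its ratios carry more counting error. How much of the difference between settings is counting error was not tested. Over the 10 classes of the plot of ratios, it passed 1.5-fold in 7 of 26 ratios (lowest -1.20) with nuclei thinned to 1000 UMIs, where Cnr1 passed in 3 of 20, and in 3 of 27 with nuclei assigned by a gate, where Cnr1 passed in 4 of 27. Under each of the 7 other settings Cnrip1 passed in 0, while Cnr1 passed in 1 to 5 ratios, the most with libraries clustered alone (5 of 27) and with the mean over nuclei (5 of 30). The share of all genes past 1.5-fold was not computed under these settings.

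Small differences were seen in the best counted classes. In the library labelled astrocyte knockout Cnrip1 stood at a log2 ratio of 0.18 (0.09 to 0.27) in CA2/CA3-like and 0.15 (0.03 to 0.27) in CA1-like neurons, where the other libraries gave -0.01, 0.02, -0.06 and -0.02. The difference was not shared by all clusters: it was 0.36 in c15 and 0.21 in c13 but -0.02 in c33 and -0.05 in c37 of the CA2/CA3-like class, and 0.29 in c3 but -0.04 in c4 of the CA1-like class. With nuclei thinned to 1000 UMIs the CA1-like value was -0.05, from fewer UMIs and so with more counting error than the main value. In dentate granule-like neurons the ratios were -0.10 (-0.18 to -0.02), 0.06 and -0.06.

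The pathway around the receptor was followed with a list of 41 genes for receptors, CB1-binding and related proteins, G protein subunits and effectors, and enzymes that make or break down 2-AG and anandamide. In CCK-like nuclei, 28, 25 and 28 of them had at least 100 UMIs in the 3 comparisons, and 0 passed 1.5-fold in either direction. Median log2 ratios of the list there were -0.01, 0.01 and -0.08, where those of all genes with at least 100 UMIs were -0.04, -0.04 and -0.02. Over the 10 classes drawn in the plot of ratios, 8 of 282, 2 of 264 and 5 of 267 pairs of a list member and a class passed 1.5-fold, 4 higher and 4 lower, 2 and 0, and 1 and 4. The list thus passed in 1.42%, 0.758% and 0.375% of pairs upward and in 1.42%, 0% and 1.5% downward. Of all pairs of a gene and a class there, 1.5%, 1.34% and 1.58% were higher and 3.53%, 2.94% and 3.39% lower, so the list passed no more often than genes at large in any of these counts. Beside Cnr1 and Gpr18, a receptor of lipid mediators, in dentate granule-like neurons (Gpr18 -1.65 for the library labelled total knockout and -1.13 for that labelled neuron knockout), these were Grk2 (0.66), a receptor kinase, in CA1-like neurons and Adcy5 (0.75), an adenylyl cyclase, in somatostatin-like neurons of the library labelled total knockout. Daglb, which makes 2-AG, was lower in subicular-like neurons (-0.82 for total and -0.64 for neuron labels), and Mgll was lower there (-1.02, total) and in Vip-like nuclei (-0.84, neuron).

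Necab1, a calcium-binding protein found in CB1-bearing interneurons and used here as a CCK marker, made up the rest. In CA2/CA3-like neurons it was higher in all 3 libraries (log2 ratios 1.10, 0.59 and 1.73), on a wild-type level of 8.73 CPM. It was also higher in parvalbumin-like nuclei of the library labelled total knockout (0.64) and somatostatin-like nuclei of that labelled astrocyte knockout (0.69), and lower in Vip-like nuclei of that labelled neuron knockout (-0.59). In CCK-like nuclei, where its mean level was 612 CPM, it lay at 0.15, -0.03 and 0.05.

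Levels of some list genes across classes follow, each compared only with itself and chosen after the values were seen. Mean levels of Cacna1b, the N-type calcium channel subunit that CB1 inhibits at terminals, were 578 CPM in CCK-like and 226 CPM in parvalbumin-like nuclei, while Cacna1a, the P/Q-type subunit, was at 205 and 879 CPM. Dagla, the main 2-AG synthase of neurons, was at 14.8 CPM in CCK-like nuclei and at 119 CPM in CA1-like and 141 CPM in dentate granule-like neurons. Faah, which breaks down anandamide, was at 38.1 CPM in CCK-like and 143 CPM in CA2/CA3-like neurons. Mgll itself was at 132 CPM in CCK-like, 303 CPM in Lamp5-like and 56.5 CPM in parvalbumin-like nuclei.

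The genes whose level across 38 classes was most like that of Cnr1, by Pearson r of log2(CPM + 1) among 13592 genes, were Taf1b (0.70), Eif4e3 (0.68), Apex2 (0.67) and Zfp28 (0.65). Of these 4, Zfp28 was highest in CCK-like nuclei, as Cnr1 was. For Cnrip1 they were E230029C05Rik (0.75), A930024E05Rik (0.73), Prss36 (0.72), Stk3 (0.72) and Zfp652 (0.72). In single libraries the values ranged widely. For Cnr1, r ran from 0.41 to 0.66 for Taf1b, from 0.49 to 0.70 for Eif4e3, from 0.52 to 0.62 for Apex2 and from 0.13 to 0.66 for Zfp28. For Cnrip1 the lowest of each gene was in the library labelled neuron knockout, at 0.34 for E230029C05Rik, 0.23 for A930024E05Rik, 0.17 for Prss36, 0.17 for Stk3 and 0.14 for Zfp652.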

How the data were processed

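The authors deposited 1 matrix of raw UMI counts for each library, with genes and barcodes listed beside it. Per the submitters' processing notes they used Cell Ranger ARC 2.0.0 and mm10. Per the labels' protocols, nuclei were lysed in detergent and cleaned on iodixanol. The sources used here do not say whether intronic reads or strand were used. The lowest number of detected genes per barcode was 400 or 401, so barcodes had been selected before deposit.

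Here, libraries were joined on 20211 shared symbols, nuclei kept with at least 500 genes and at most 5% mitochondrial UMIs, and doublets removed per library with Scrublet in scanpy 1.11.5. Clustering used 2000 variable genes without Cnr1, Cnrip1, Mgll, sex and mitochondrial genes, 30 components, 15 neighbours and Leiden (leidenalg 0.10.2) at resolution 2, then 0.5 within inhibitory nuclei. A name needed 3 markers, and at least 50% of its list, in at least 10% of nuclei and 2-fold above the rest. Resolution and this rule were set after clusters were seen. The 2 genes and all lists were chosen with earlier results of these data known.

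UMIs were summed per library and class. Sums carry exact Poisson, ratios conditional binomial and shares Clopper-Pearson intervals (95%). A gene is called past 1.5-fold with at least 100 UMIs over the 2 libraries. Ratios of a class needed 20 nuclei and 10 UMIs in each library. Genes were named by fixed rules: Cnr1 and Cnrip1 everywhere, list members past 1.5-fold in described classes, and the 5 genes most like each, of which 1 for Cnr1 is not reported here. List genes named for their level in CCK-like nuclei were chosen after their values were seen. Alternatives were run on 10 neuron classes.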

Additional observations from a re-analysis of the deposited data

How the results depend on the processing

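No paired analysis was possible because each genotype has 1 library and the groups share only the replicate number 1. In each of 8 alternatives for levels over 10 neuron classes, Cnr1 was highest in CCK-like, then in Vip-like, and lowest in dentate granule-like nuclei, and Cnrip1 was highest in CA2/CA3-like neurons. The fold of Cnr1 between CCK-like and Vip-like nuclei ran from 2.24 to 3.15. The mean without each library in turn and each cluster alone were added after the data were seen. Alternatives were not run for classes outside the 10, and the cause of a shift was not tested.

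Of the mean Cnr1 levels, a gate on each nucleus gave 1398 CPM in CCK-like, 624 in Vip-like, 78.3 in CA1-like and 7.87 in dentate granule-like nuclei. In CA1-like neurons Cnr1 stood at 73.7 CPM with doublets kept, 64.4 in nuclei with only Y-linked UMIs, 73.6 with only Xist UMIs, 81.0 with libraries clustered alone and 65.0 after thinning to 1000 UMIs. Cnrip1 after thinning stood at 121 CPM in CCK-like, 202 in CA2/CA3-like and 165 in dentate granule-like nuclei, and in nuclei with only Xist UMIs at 121 in CCK-like and 166 in dentate granule-like nuclei.

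The log2 ratio of Cnr1 in CCK-like nuclei, labelled total knockout, was -0.23 with doublets kept, -0.23 with only Y-linked UMIs, 0.017 clustered alone, -0.14 thinned and 0.024 with median-of-ratios scaling. For the astrocyte label it was 0.072 clustered alone, -0.32 thinned, -0.018 with that scaling, 0.028 in i5 and -0.20 in i7. For the neuron label it was -0.29 with doublets, -0.42 with only Y-linked and -0.10 with only Xist UMIs, -0.042 clustered alone, -0.043 by the gate and -0.14 in i5. In CA1-like neurons it was 0.15 with only Y-linked UMIs (total), 0.091 by the gate and 0.23 thinned (astrocyte), and -0.31 clustered alone (neuron). In dentate granule-like neurons the value for the total label reversed to 0.25 with doublets and 0.31 by the gate, and was -1.45 thinned and -0.050 in c1. The astrocyte label gave -0.64 with only Y-linked UMIs, 0.76 by the gate and -0.38 in c6, and the neuron label -0.52 with only Y-linked UMIs and 0.80 in c0.

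For Cnrip1, thinning gave -0.23 (total) and -0.046 (astrocyte) in CA1-like, 0.21 (neuron) in CA2/CA3-like, and -0.20 (total) and -0.19 (neuron) in dentate granule-like neurons. With only Y-linked or only Xist UMIs the CA2/CA3-like value for the neuron label was 0.17 and -0.11. Levels of single classes moved beyond the spread of the 4 libraries in 14 of 120 values of each gene. The 120 include, for each of the 4 libraries left out in turn, a further 10 values. Leaving out 1 of 4 libraries cannot shift a mean by as much as that spread, so these values could not count as moved. Of log2 ratios under the alternatives, 54 of 263 for Cnr1 moved and 2 reversed, and 23 of 246 for Cnrip1 moved. A reversal was counted only where the main ratio passed 1.5-fold, which no Cnrip1 ratio of these classes did. By the gate, 19 of 27 ratios of each gene kept their sign. After thinning to 1000 UMIs, 16 of 20 for Cnr1 and 17 of 26 for Cnrip1 kept it. With only Y-linked UMIs 18 of 26 and 23 of 27 did, and with at least 1000 detected genes 29 of 30 of each gene.

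Counts past the fold depend on its limits. Over all classes, with at least 20 UMIs in place of 100, pairs of a gene and a class past 1.5-fold went from 4408 higher and 7345 lower of 192475 to 22120 and 37930 of 360066 (total), from 3759 and 5948 of 151085 to 22292 and 29168 of 300909 (astrocyte), and from 3082 and 5280 of 151931 to 20962 and 26264 of 294980 (neuron). At 2-fold they were 960 and 1252, 839 and 983, and 467 and 859. List members past the fold in 10 classes, 8, 2 and 5, became 29 of 346, 20 of 337 and 21 of 341 with at least 20 UMIs (8.38%, 5.93% and 6.16%, against 14.0%, 12.9% and 13.6% of all genes there). At 2-fold they were 3 of 282, 0 of 264 and 2 of 267 (1.06%, 0% and 0.749%, against 0.792%, 0.458% and 0.606%). In 1 library alone, r with Cnr1 was 0.46 (wild type) and 0.41 (neuron) for Taf1b, and r with Cnrip1 was 0.55 (astrocyte) and 0.34 (neuron) for E230029C05Rik.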
